A study of Homo sapiens with 2 samples.

Results

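YB-1 left crosslinked clusters deep in 3′ untranslated regions (3′ UTRs) as well as in coding sequence, and 216 such far 3′ UTR sites, in 195 protein-coding genes, are described here. They were chosen by position alone. A cluster was a member when it was at most 60 bases wide, lay on a nuclear chromosome, and had its middle base in the annotated 3′ UTR on the same strand, more than 500 spliced bases past the coding sequence. The transcript used for each gene was the GENCODE release 44 protein-coding transcript with the longest coding sequence. Of the 3393 clusters in both tables together, 149 of the 1382 in Rep.A and 192 of the 2011 in Rep.B were members. Members that overlapped between the tables on the same strand were counted once, which gave 125 sites found in both replicates, 24 in Rep.A alone and 67 in Rep.B alone.

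The clusters come from PAR-CLIP, in which RNA carrying a photoreactive nucleoside is crosslinked to a protein and recovered with it, of YB-1 in wild-type HEK293T cells, a line derived from human embryonic kidney, with 1 condition and 2 replicates that the study's methods call independent. 4-Thiouridine was given at 100 µM over 16 h, crosslinking used light of 365 nm at 0.15 J/cm2, and a rat polyclonal antibody against a C-terminal peptide of YB-1 recovered RNA cut with RNase T1. A crosslinked thiouridine is read as C in the complementary DNA, so each cluster marks T-to-C changes in the sequenced RNA. No control without crosslinking, without antibody or without YB-1 was analysed here, and the tables give coverage inside clusters but no expression, so neither a background level nor the cell type could be checked.

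YB-1 is an abundant RNA-binding protein of the Y-box family that packs mRNA into cytoplasmic particles and is known both to repress translation and to stabilise mRNA. Its cold-shock domain reads short single-stranded C- and A-rich motifs, of which CATC and CACC are the best known. The 3′ UTR carries elements that control the stability, location and translation of an mRNA, and since alternative polyadenylation can shorten it, the part far from the stop codon need not be present in every mRNA of a gene.

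The sequences of 13 of the 15 sites with the highest coverage over both replicates show what a far site looked like. They are given 5′ to 3′ on the RNA strand, with T for U, and CATC and CACC in capitals. The first 8 hold at least 1 of these tetramers.

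GNA13: atCATCacaaaCATCtatcttttg
TMED2: ataaaccatacttcCACCttg
YY1: ctCATCCACCccaaattactg
CANX: gtcaaatgcccactctcCATCag
RNF4: ttctCATCcttcccaacccag
ALKBH5: ccacttctCACCtgcCATCcacg
PIP5K1A: ctcttctCATCttttccaacag
TEX261: cactctcttcCATCtctttccccaag

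The other 5 hold neither, and they are shown because they include the site that ranked first.

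SERBP1: actcaaaacacaacttctcag
OTUD7B: ttcaaacaaaaccaaaaacctaag
ENSG00000260272: ctcccagctatctataaccttag
TMBIM6: ttttggctctccctattcacaaccag
GATC: actcttactatcccatttcaag

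All 13 sequences end in G and are poor in G before it. Over all 216 sites, 206 ended in G (95.4%, 95% Wilson interval 91.7 to 97.5), whereas 21.8% of T-containing windows of the same widths in the same stretches of 3′ UTR did. RNase T1 cuts RNA after G. A G before the last base was present in 69 of the 216 sites. C made up 37.2% of the bases in the sites and 20.6% of the bases more than 500 past the coding sequence in the same transcripts, A 27.8% against 27.1%, T 27.5% against 30.9% and G 7.50% against 21.3%. The far sites were therefore richer in C and poorer in G than the sequence around them, with A nearly equal. The median width was 22 bases (quartiles 21 and 25) and the median number of T bases was 6.

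The site with the highest mean log2 coverage over both replicates lay in the 3′ UTR of SERBP1, which encodes an mRNA-binding protein that associates with ribosomes, at hg38 chr1:67411267-67411287 on the minus strand and 1933 bases past the coding sequence. Its mean coverage was 43 reads in Rep.A against 113 in Rep.B, where mean coverage is the number of reads over a base, averaged over the cluster and not scaled for depth. A second SERBP1 site lay 1856 bases past the coding sequence, with 4.90 reads in Rep.A against 21 in Rep.B, so that neighbouring sites of a single mRNA differed several-fold in both replicates. GNA13, the alpha subunit of a heterotrimeric G protein, followed with 34.8 reads in Rep.A against 105 in Rep.B at chr17:65013292-65013315 on the minus strand. TMED2, a cargo receptor of vesicles between the endoplasmic reticulum and the Golgi, had 43.9 and 65.5 reads in Rep.A and Rep.B at chr12:123597943-123597963 on the plus strand. In these genes, as in all 15, the site was higher in Rep.B. The 15 were ranked among sites found in both replicates only.

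Among the 15 were CANX and TMBIM6, whose products belong to the endoplasmic reticulum, and the mitochondrial GATC. CANX encodes calnexin, a chaperone of glycoprotein folding, and its site at chr5:179730807-179730829 on the plus strand had 28.6 reads in Rep.A against 79.5 in Rep.B. TMBIM6, a membrane protein of the endoplasmic reticulum that protects from cell death, had 26.5 and 79.4 reads at chr12:49764326-49764351 on the plus strand. GATC, a subunit of the mitochondrial amidotransferase that makes glutaminyl-tRNA, had 28.6 and 64.4 reads at chr12:120462329-120462350 on the plus strand, where the SRSF9 gene lies on the opposite strand. No list of organelle genes was compared for these, and they are named for their coverage only.

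Regulators of ubiquitin, transcription and RNA were also present. OTUD7B, a deubiquitinase, had 37.5 reads in Rep.A against 64.1 in Rep.B at chr1:149942913-149942936 on the minus strand. RNF4, a ubiquitin ligase that recognises SUMO chains, had 29.95 and 71 reads at chr4:2514847-2514867 on the plus strand. The zinc finger transcription factor YY1 had 32.1 and 72 reads at chr14:100281718-100281738 on the plus strand, 4131 bases past the coding sequence, the farthest of those shown. Its site holds CATC and CACC directly next to each other, as shown above. ALKBH5, an RNA demethylase, had 22 and 72 reads at chr17:18208885-18208907 on the plus strand, and a second site 37 bases downstream, at 540 bases past the coding sequence, had 25 and 40. The order of the 2 ALKBH5 sites thus differed between the replicates. PIP5K1A, a phosphatidylinositol phosphate kinase, had 29 and 53 reads at chr1:151248824-151248845 on the plus strand, and TEX261 had 22.4 and 58.2 reads at chr2:70987872-70987897 on the minus strand.

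**Figure D1:**
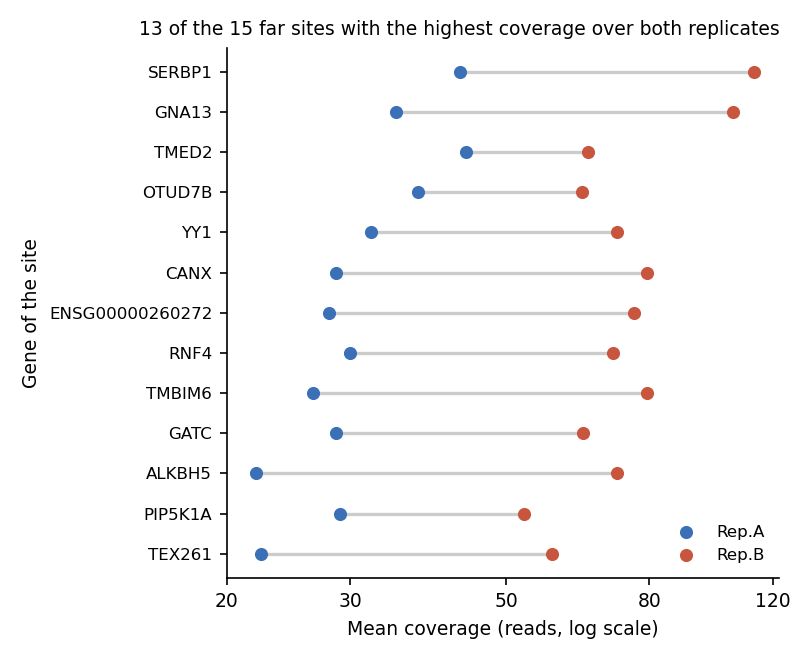
Mean coverage in reads (x axis, log scale) of 13 of the 15 far sites with the highest coverage over both replicates, with 1 row per site named by its gene and 1 point for each replicate (n = 1 cluster per point). Rep.B was higher at each of the 13 shown, and neighbouring rows overlap widely.

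The site in ENSG00000260272, a gene without a symbol in GENCODE release 44, had 28 reads in Rep.A against 76 in Rep.B at chr16:2520083-2520105 on the plus strand. There ATP6V0C, a subunit of the vacuolar proton pump, overlaps it on the same strand, and reads at this position cannot be assigned to a single transcript. The choice of transcript could also be compared with MANE Select, the reference transcript shared by Ensembl and RefSeq. Of all 216 sites, 205 were also more than 500 bases past the coding sequence of the MANE Select transcript, 2 lay in its coding sequence, 3 lay outside its exons, and 6 were in genes without one.

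All 216 sites lay in the last exon of the transcript used. Not every annotated coding transcript of these genes holds the site, though. At 152 sites (70.4%) at least 1 other coding transcript of the same gene did not span the site or spliced it out. Incomplete transcript models were not left out, so this is not a count of other 3′ ends. In genes with a single coding transcript lay 43 sites. Few sites were near the annotated end: 5 lay within 100 bases of it, and 7 had the polyadenylation hexamer AATAAA or ATTAAA in the next 50 bases. A gene on the same strand overlapped 24 of the sites and a gene on the opposite strand 40.

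The median distance past the coding sequence was 1219.5 bases (quartiles 744.5 and 2211), and the sites ranged from 503 to 11846 bases. Relative to the length of the 3′ UTR the median position was 52.7%, so the sites were spread over the length and not collected at its end. The density of sites was lower in the bins beyond 1000 bases than in the bins before. Per 100 kb of annotated 3′ UTR of all protein-coding genes, there were 2.01 sites from 1 to 500 bases past the coding sequence (157 sites, called near sites below) and 1.75 from 501 to 1000 bases (94 sites). From 1001 to 1500 bases there were 0.819 (33 sites), from 1501 to 2000 bases 0.879 (27 sites), slightly more, and beyond 5000 bases 0.454 (13 sites). Taken over the 3′ UTRs of genes with any site in the tables, the same bins held 45.8, 35.9, 15.93, 16.02 and 6.87 sites per 100 kb. On both scales the step after 1000 bases was larger than the step after 500. These densities were not tested, and how much of the annotated 3′ UTR is present in these cells is not in the tables. The sites on either side of the 500-base border had coverage in the same range: inside it, the sites in ALKBH5 and ENSG00000285920, both at 503 bases, had 22 and 18 reads in Rep.A against 72 and 58 in Rep.B, and the nearest outside, in FEM1B at 498 bases and VMP1 at 495, had 66.3 and 47.1 reads in Rep.B, with FEM1B not listed in Rep.A and VMP1 at 14.7.

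**Figure D2:**
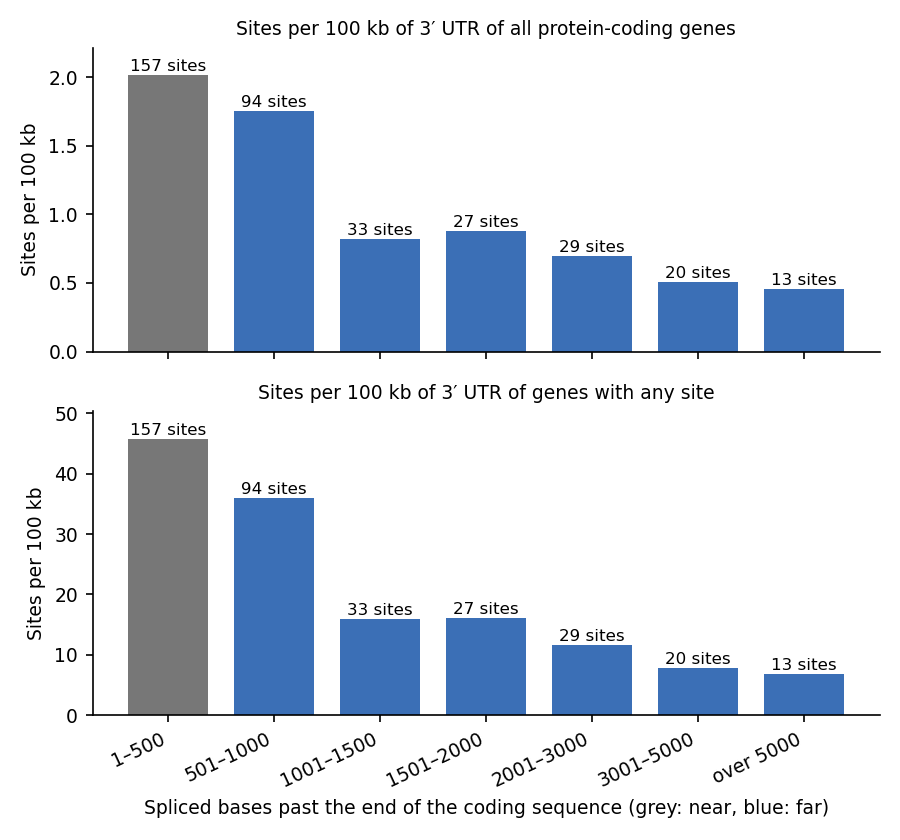
Sites per 100 kb of annotated 3′ UTR (y axes) by distance past the coding sequence in spliced bases (x axis), over all protein-coding genes (top) and over genes with any site (bottom), with the number of sites above each bar, grey for near sites and blue for far sites. Bars go from 2.01 to 0.454 in the top panel, with a slight rise from 0.819 to 0.879 in the bin ending at 2000 bases and with the largest step between the bins ending at 1000 and at 1500 bases.

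The 5 sites farthest from the stop codon that were found in both replicates belonged to IRS4, CBL, NFAT5 and RPP14. Their sequences are shown because they lie so deep in the 3′ UTR and still have the form of the sites above. All end in G, and no other base of the IRS4, CBL and RPP14 sites is G.

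IRS4, 11846 bases: tttccaacctaatcaaataacg
CBL, 6792 bases: ctccctcctctctacctacctctg
IRS4, 5944 bases: tttcCATCtcacaattaatcttg
NFAT5, 5649 bases: ctattccagctccttaccacag
RPP14, 5259 bases: atCACCtacacattttctaag

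IRS4, an adaptor of insulin receptor signalling, had its farthest site at chrX:108720718-108720739 on the minus strand, with 17 reads in Rep.A against 50.1 in Rep.B. In the MANE Select transcript of IRS4, which splices out most of this stretch, the same site is 1794 bases past the coding sequence. The site at chrX:108726619-108726641 had 11 and 47 reads and is intronic there. CBL, a ubiquitin ligase for receptor tyrosine kinases, had 18.5 and 49.4 reads at chr11:119306559-119306582 on the plus strand. NFAT5, a transcription factor of the response to osmotic stress, had 16 and 49 reads at chr16:69701987-69702008 on the plus strand. The RPP14 site at chr3:58322742-58322762 on the plus strand had 12 and 34 reads, lies past the end of the MANE Select transcript, and RPP14 encodes a subunit of RNase P. In each of the 5 the coverage was close to the median of the far sites in Rep.A and close to or above it in Rep.B.

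Most genes had a single far site. Of the 195 genes, 179 had 1 site, 11 had 2 and 5 had 3. A near site was also present in 13 of the 195 and a site in coding sequence in 24, and 161 had neither. Of all 19689 protein-coding genes with a transcript used here, 155 had a near site and 486 a site in coding sequence. Having neither was therefore common to most genes and not particular to those with a far site. The 195 genes are 1.55% of the 12579 protein-coding genes whose 3′ UTR exceeded 500 bases, and the 114 genes with a far site found in both replicates are 0.906%. Their 3′ UTRs were long, with a median of 3011 bases (quartiles 1774.5 and 4942.5), against 2041 bases over the 593 genes that had any site in the tables and a 3′ UTR over 500 bases, and 1694 over all 12579. A longer 3′ UTR has more room for a far site, so this is a property of the rule in part.

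The 5 genes with 3 far sites fell into separate kinds. PYGO2, a coactivator of Wnt signalling, had all 3 in both replicates, within a 3′ UTR of 1756 bases: 17 and 32.7 reads at 570 bases, 11.3 and 22.1 at 962, and 17 and 28.6 at 1372, each given for Rep.A and then Rep.B. TMBIM6 also had all 3 in both, with 3.85 and 26.3 reads at 1005 bases, the 26.5 and 79.4 reads at 1445 given above, and 16 and 34 at 1903, besides a near site. The PYGO2 sites were thus even, and those of TMBIM6 differed several-fold in both replicates. IRS4 had the last of its sites, with 7 reads, in Rep.A alone. In CBX5, the heterochromatin protein HP1 alpha, and NUDT3, a hydrolase of inositol pyrophosphates, all 3 sites were listed in Rep.B alone, with 11, 56.4 and 4 reads in CBX5 and 14, 15 and 53 in NUDT3, in order of distance. The CBX5 site with 4 reads has a sequence that occurs at 4 places in the genome.

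**Figure D3:**
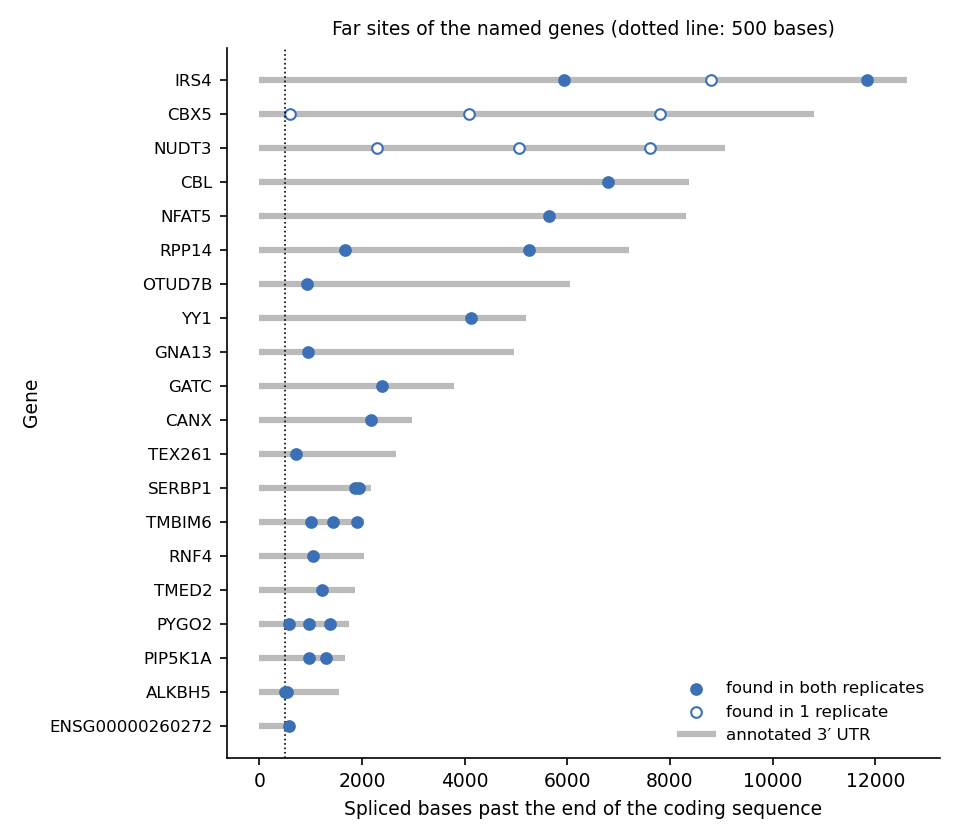
Position of every far site of the named genes along the annotated 3′ UTR (x axis, spliced bases past the coding sequence, grey bars drawn to scale, 1 row per gene), filled where found in both replicates and open where found in 1, with the 500-base border dotted. PYGO2 and TMBIM6 have 3 filled points each, and CBX5 and NUDT3 have only open points.

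Over all 125 sites found in both replicates, coverage was higher in Rep.B at each. The median log2 ratio of Rep.B to Rep.A was 1.42 (SD 0.46, n = 125 sites), a ratio of 2.67. For near sites it was 1.50 (SD 0.71, n = 99), and for sites in coding sequence 1.39 (SD 0.53, n = 361). The ratios lay within 1 SD of each other, so the far sites followed the replicates' common shift. All far clusters together held 4.58% of the summed coverage (mean coverage times width) of all clusters in Rep.A and 4.52% in Rep.B. They were 10.8% of the clusters in Rep.A and 9.55% in Rep.B. Across these 125 sites the coverages of the replicates had Pearson's r = 0.809 and Spearman's rho = 0.764, given as a description, since sites of a sample share its depth. The members' boundaries were repeatable, with 102 of the 125 at the same start and end in both tables.

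**Figure D4:**
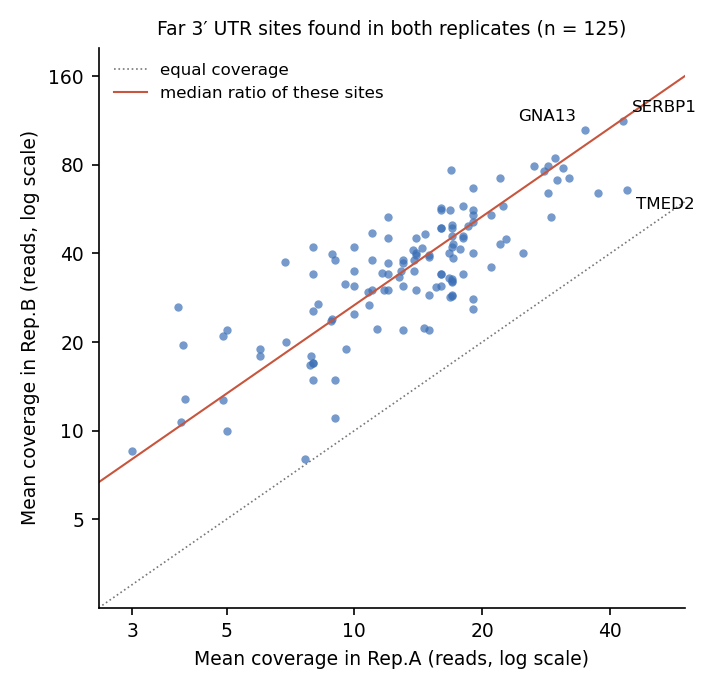
Mean coverage in Rep.A (x axis) against Rep.B (y axis), in reads on log scales, for the 125 far sites found in both replicates, 1 point per site, with the line of equal coverage dotted and the median ratio of 2.67 in red. All points lie above the dotted line, and SERBP1, GNA13 and TMED2 are the upper right points.

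Median coverage of all far clusters was 14 reads in Rep.A (quartiles 9 and 18, n = 149) and 32.1 in Rep.B (19 and 46, n = 192). Near clusters had 12.5 and 33 reads, and coding clusters 13.7 and 33. The quartile ranges of far clusters contain the medians of both other regions in both replicates. Sites found in a single replicate were lower, at 10.3 reads in the 24 of Rep.A and 19 in the 67 of Rep.B, against 14.6 and 37 in sites found in both. There were exceptions, chosen after their values were seen. RANGAP1, the GTPase-activating protein of Ran, had 211 reads at 515 bases in Rep.B, the highest coverage of any far cluster, and no cluster in Rep.A. GNB1, a G protein beta subunit, had 63.9 reads at 1393 bases in Rep.A, the highest there, and none in Rep.B. A site in 1 table only can therefore be well covered.

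The share of far sites found in both replicates was 57.9% (125 of 216, 95% Wilson interval 51.2 to 64.3). It was 63.1% of near sites (99 of 157) and 60.6% of sites in coding sequence (361 of 596). The differences were -5.19 percentage points (95% Newcombe interval -15.0 to 4.88) and -2.70 points (-10.4 to 4.83), and neither passed the test (two-sided Fisher's exact tests, Benjamini-Hochberg adjusted p = 0.504 and 0.621 over the 12 tests of 6 properties). Within the far sites the share was 63.8% (53.8 to 72.8) at 501 to 1000 bases, 58.3% (45.7 to 69.9) at 1001 to 2000 and 48.4% (36.4 to 60.6) beyond 2000. These intervals overlap. Sites of 1 gene and of 1 sample are not independent, and the intervals cover counting error only.

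CATC was present in 74 far sites (34.3%, 95% Wilson interval 28.3 to 40.8) and CACC in 67 (31.0%, 25.2 to 37.5). Together they covered 124 sites (57.4%), of which 17 held both, while 92 held neither. Among all windows of the same width with at least 1 T in the same stretches of 3′ UTR, 6.68% held CATC and 7.17% CACC. Sites thus held CATC 5.13 times and CACC 4.33 times as often as the windows, ranks 1 and 2 among the 96 tetramers that at least 10 sites held. Motifs were searched on the RNA strand only, and either tetramer can share its last base with the first of the other. The ratios were lower once G was matched: among windows with as many G as the site, 14.5% held CATC and 18.6% CACC, ratios of 2.37 and 1.67, at ranks 2 and 15. The tetramer in most sites was TCCA, with 82 sites (38.0%, against 9.51% of windows and 20.2% of those with as many G). No test was made of these shares. CATC and CACC were chosen from the literature and with earlier results of these data known, so their ratios and ranks are a description only.

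Well covered sites were not those with the tetramers alone. Median coverage was 13.9 reads in Rep.A against 34 in Rep.B for clusters of sites with CATC or CACC, and 14 and 30.8 without. The tetramers were in 73 of the 125 sites found in both replicates (58.4%) and in 51 of the 91 found in 1. By distance they were in 57.4% of sites at 501 to 1000 bases, 56.7% at 1001 to 2000 and 58.1% beyond 2000. Other 3′ UTR elements were rare. ATTTA, the core of AU-rich elements, was in 3 sites (1.39%, against 3.44% of windows and 7.17% of those with as many G), and AATAAA in 5 (2.31%, against 2.19% and 5.18%). The Pumilio motif TGTANATA was in 0, which allows a share of up to 1.75% (Wilson upper bound). It was in 0.357% of windows and 0.077% of those with as many G, so a count of 0 does not set the sites apart from the windows.

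Both tetramers were less frequent in far sites than in coding sites, and CACC was also less frequent than in near sites. CATC was in 46.3% of sites in coding sequence (276 of 596) and 36.9% of near sites (58 of 157). The difference from coding sites was -12.0 percentage points (95% Newcombe interval -19.3 to -4.39; two-sided Fisher's exact test, Benjamini-Hochberg adjusted p = 0.00919), and the difference from near sites was -2.68 points (-12.5 to 7.02, adjusted p = 0.694), which did not pass. CACC was in 44.8% of sites in coding sequence (267 of 596) and 44.6% of near sites (70 of 157). Far sites differed from coding sites by -13.8 points (-20.8 to -6.21, exact test, adjusted p = 0.00302) and from near sites by -13.6 points (-23.3 to -3.63, exact test, adjusted p = 0.0215). The call against near sites did not hold in either replicate taken alone (-12.1 points in Rep.B, adjusted p = 0.0567, and -10.3 in Rep.A, adjusted p = 0.218, exact tests) or in sites found in both (-8.61 points, adjusted p = 0.379). It was also lost among sequences once in the genome (exact tests, adjusted p = 0.0929), at higher score (0.125) and beyond 1000 bases (0.0872). Both calls against coding sites held in each replicate taken alone and were lost among sites of higher score (exact tests, adjusted p = 0.125 for each), and that of CATC also beyond 1000 bases (-11.1 points, exact test, adjusted p = 0.0872). The sequence around the sites moved the same way: in windows of the same width within each region, CATC was in 6.68% for far, 8.52% for near and 11.9% for coding sites, and CACC in 7.17%, 11.3% and 11.8%. Relative to those windows, the sites held CATC 5.13, 4.34 and 3.90 times as often, and CACC 4.33, 3.95 and 3.81 times. The part of this background in the differences was not tested.

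**Figure D5:**
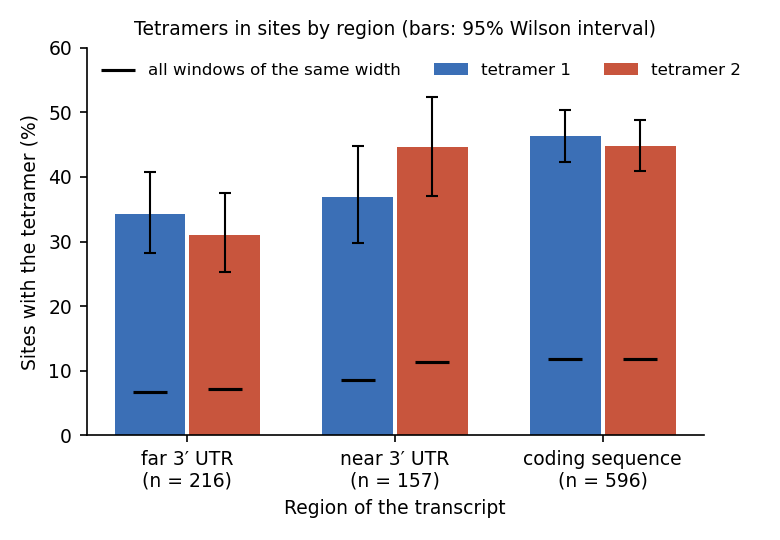
Share of sites with CATC (tetramer 1, blue) and CACC (tetramer 2, red) in far 3′ UTR, near 3′ UTR and coding sequence (x axis; y axis in percent of sites), with 95% Wilson intervals as error bars and black ticks for the share of all windows of the same width in the same region. Far sites have 34.3% and 31.0%, below coding sites at 46.3% and 44.8%, and the ticks rise from far to coding as well.

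A last base of G passed the test neither against near sites (97.5%, difference -2.08 points, 95% Newcombe interval -6.08 to 2.27, exact test, adjusted p = 0.547) nor against coding sites (96.0%, -0.60 points, -4.51 to 2.22, exact test, adjusted p = 0.694). Far sites differed in how unique they were. Their sequence occurred once in the genome at 181 of 216 sites (83.8%), against 71.0% of coding sites (423 of 596), a difference of 12.8 points (6.31 to 18.6, exact test, adjusted p = 0.00216), and against 75.8% of near sites (119 of 157), a difference of 8.0 points (-0.16 to 16.4, exact test, adjusted p = 0.110). The call against coding sites rested on Rep.B: it was 5.10 points without that replicate (exact test, adjusted p = 0.368) and 5.48 points over sites found in both (adjusted p = 0.379). Reads of a repeated sequence were placed by the aligner at a matching place, which need not be the place they came from. The sequences of 30 far sites occurred at 2 or more places. Another 5 far sites were under 15 bases and were not searched. In every region such short sites counted as not once in the genome, and their part in these differences was not tested. The site in POTEM, with 3 and 8.50 reads, has a sequence found at 14 places in the genome and in transcripts of ACTB, and the sites in PGAM4 and PGAM1 share theirs.

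Most far sites had 1 crosslinked T position with a called transition, taking the higher count of the replicates for a site found in both. More than 1 was found at 23 of 216 sites (10.6%), against 19.0% of coding sites (113 of 596; -8.31 points, 95% Newcombe interval -13.1 to -2.66, exact test, adjusted p = 0.0164) and 19.1% of near sites (30 of 157; -8.46 points, -16.1 to -1.23, exact test, adjusted p = 0.0487). The median number of T bases was 6 in far and near clusters and 5 in coding clusters, and its part in these differences was not tested. The call against near sites was lost in each replicate alone (adjusted p = 0.0728 in Rep.B and 0.218 in Rep.A, exact tests), and that against coding sites was lost in Rep.A alone (-5.93 points, adjusted p = 0.218). Of the other alternatives, the call against near sites held only with a 50% reciprocal overlap (-8.46 points, exact test, adjusted p = 0.0487). It was lost under the rest (exact tests, adjusted p = 0.133 to 0.620). The call against coding sites was also lost among sequences once in the genome (exact tests, adjusted p = 0.0810), at higher score (0.228) and beyond 1000 bases (0.102). Of the 125 sites found in both replicates, 104 had 1 position in each and 12 had more than 1 in each. Sites found in both made up 21 of the 23 with more than 1 position, so the measure depends on being found in both. The NFAT5 site had 3 positions in Rep.B and 2 in Rep.A. Coverage moved with this count: clusters of the 23 sites had medians of 16.4 reads in Rep.A against 42.4 in Rep.B, against 13.8 and 31 in the other sites. The crosslinking efficiency, which is the number of such positions over the T bases, had a median of 0.17 in both replicates.

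Gene lists were defined by symbol and counted among genes with a 3′ UTR over 500 bases, to be read against the 1.55% of all such genes with a far site. Of 28 cytosolic ribosomal protein genes, 3 had one (10.7%), among them RPL15, with 5 reads in Rep.A against 22 in Rep.B at 715 bases and a sequence at 2 places in the genome, and RPL27A, with 37.3 reads in Rep.A alone. Of 36 mitochondrial ribosomal protein genes, 3 had one (8.33%): MRPL35, with 19 and 67 reads at 846 bases, MRPS2, with 21 and 36 at 516, and MRPL19, with 24 reads in Rep.B alone. Both shares rest on 3 genes.

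Lists of the secretory pathway and of ubiquitin had more members. Of 164 vesicle traffic genes, 5 had a far site (3.05%), among them TMED2 as described and the small GTPase RAB8A, with 14 and 45 reads at 520 bases. Of 197 ubiquitin ligase and conjugating enzyme genes, 5 had one (2.54%), found in both replicates in RNF4, RNF169, TRIM14 and RNF150, the last with 8.23 and 26.9 reads at 4289 bases. Of 416 zinc finger genes of the ZNF family, 8 had one (1.92%), and those in ZNF28 and ZNF468 share a sequence. Of 21 proteasome genes, 1 had one, PSMB2, with 6.86 and 37.4 reads, and of 63 phosphatase genes 1, the catalytic subunit PPP2CA, with 13 and 37. Solute carriers were at 3 of 265 (1.13%), chaperones at 1 of 52 and RNA helicases at 1 of 34, and of 64 cytoskeletal genes TUBB alone had far sites. Translation factors (51 genes), hnRNP and SR proteins (31), oxidative phosphorylation (40), chromatin regulators (90) and cell cycle kinases and cyclins (75) had none. Lists of these sizes would hold very few genes at 1.55%, so the counts of 0 lie near that background, and since expression is not in the tables no list was tested for enrichment.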

How the data were processed

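Trimming by the authors used cutadapt 2.10 and alignment to hg38 used Bowtie 1.0.0, as the submitters' processing notes list, and wavClusteR then found the clusters of either replicate by itself. Mean coverage, as deposited, is a signal: reads over each base of the cluster, with no scaling by depth. The deposited transitions and T bases per cluster are counts, the authors' crosslinking efficiency is a fraction, and their log odds are a score. Here all 3393 cluster sequences matched hg38, and clusters were placed on GENCODE release 44 with Python 3.11.15, pandas 2.3.3, pysam 0.24.0 and scipy 1.17.1. The coding sequence ended before the stop codon, so distances include it. Overlap meant at least 1 shared base, and exact genome copies were searched for sequences of at least 15 bases. Shares were compared by two-sided Fisher's exact tests, adjusted by Benjamini-Hochberg over 12 tests at a threshold of 0.05, with 95% Wilson and Newcombe intervals. Window shares enumerate every window and carry no test. Placement and tests were tested on simulated data.

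Named genes are those of the 15 sites found in both replicates with the highest mean log2 coverage, the 5 farthest such sites, genes with 3 or more far sites, sites found in both with 3 or more crosslinked positions, and list members, and a few genes that meet this rule are not reported here. The members, the tetramers CATC and CACC, and the lists were chosen with earlier results of these data known. Alternatives were the MANE Select transcript, sequences once in the genome, coverage of at least 10 reads, score at or above the median, more than 1000 bases, a 50% reciprocal overlap, 1 site per gene, each replicate alone and, added after seeing the data, sites found in both replicates. The study lists mapped reads per replicate, which were not used here, and coverage was not scaled by them.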

Additional observations from a re-analysis of the deposited data

How the results depend on the processing

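All values are far minus the other region, in percentage points. The alternatives gave 126 values, of which 92 had the direction and side of the threshold given above (or, for a count, were within 1.5 times of it), 24 had the direction but lost the call, 6 changed sign, and 4 counts moved further. All 6 changes of sign were in differences that had not passed the test. The cause of these changes was not tested. Except for the sign changes and the counts, each value below had lost its call, unless it is the far end of a range.

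Requiring a score at or above the median left 113 sites in 105 genes, and more than 1000 bases left 122 sites in 108 genes. With the higher score, CATC was 4.91 against near sites and -11.3 against coding sites, CACC -15.5 and -12.2, and more than 1 crosslinked position -3.58 and -6.43. Beyond 1000 bases, CATC against coding sites was -11.1, CACC against near sites -11.9, and more than 1 position -4.06 against near and -7.48 against coding sites. Among sequences once in the genome, CACC against near sites was -11.9, a last base of G 0.046 against near sites, and more than 1 position -6.89 against near and -7.55 against coding sites. At a coverage of at least 10, G was 0.0040 against coding sites and more than 1 position -7.57 against near sites. More than 1 position against near sites was -6.62 with the MANE Select transcript and -7.43 with 1 site per gene. Over sites found in both replicates, CACC against near sites was -8.61, G 0.40 and once in the genome 5.48 against coding sites, and more than 1 position -9.46 against near sites.

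Without replicate A or replicate B in turn, CACC ranged from -12.1 to -10.3 and more than 1 position from -8.09 to -7.21 against near sites. Against coding sites more than 1 position ranged from -9.47 to -5.93 and once in the genome from 5.10 to 14.2. A last base of G ranged from -3.05 to 0.92 against near and from -0.93 to 0.69 against coding sites. No paired analysis was possible because there is 1 condition and no comparison between groups of samples.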
